A study of Rattus norvegicus with 8 samples.

Results

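The genes described here are the Fos and Jun family members of activator protein 1 (AP-1): Fos, Fosb, Fosl1, Fosl2, Jun, Junb, Jund and Atf3. They were found as the non-control probes whose gene name in the scanner files is one of these 8 symbols. That rule gave 7 of the 8 genes, with 8 probes among 41012 that are not controls, on an array that names 17542 genes. Jund had 2 probes, every other found gene had 1, and no probe carried the name Fosb. The genes were chosen on their differences between the groups compared below, with those results already known, so the differences are a description and no p-value is given for a member. The cells were BRL-3A, an established line derived from rat liver, cultured in DMEM with fetal bovine serum. In one group they had been transfected for 48 h, by a lipofectamine reagent, with siRNA that targets lnc19959.2, a long noncoding RNA, and in the other the transfection is labelled NC (4 arrays per group). Both groups went through the same lipid transfection, and the study as a whole asked about triglyceride metabolism. All arrays come from 1 cell line, and the labels do not state whether the arrays of a group stem from separate cultures, so p-values below rest on a spread among arrays that may be technical only. No probe named for lnc19959.2 was found on the array, so its level was not read here.

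AP-1 is a dimer of basic leucine zipper (bZIP) proteins. Fos proteins need a Jun partner to form a stable pair, Jun proteins also pair with each other, and Atf3 pairs with Jun proteins. The dimers bind the palindromic TRE site or the related CRE site in promoters and enhancers. Several of these genes are immediate early genes: growth factors, stress and cytokines induce them through MAP kinases and pre-made transcription factors without new protein synthesis. Liver cells induce Fos and Jun within a short time of partial hepatectomy or serum stimulation, and the mRNAs of most of these genes are short-lived.

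Of the 60-base probes, 3 are shown because their sequence places them in a recognisable coding part of the protein they report on. In the Fos and Jund probes, capitals mark leucine codons spaced 7 codons apart in an open reading frame, the spacing that gives the leucine zipper its name. The Junb probe ends in the stop codon of its open frame. The Fos probe lies at chr6:109561099-109561158 on the plus strand, the Jund probe at chr16:19240333-19240392 on the minus strand and the Junb probe at chr19:24832781-24832840 on the plus strand, on the rn4 build of the array design.
Fos: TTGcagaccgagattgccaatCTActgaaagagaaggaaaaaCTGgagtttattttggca
Jund: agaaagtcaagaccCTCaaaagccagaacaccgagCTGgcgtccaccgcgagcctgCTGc
Junb: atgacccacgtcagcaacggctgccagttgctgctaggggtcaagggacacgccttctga
Zipper sequences are alike between family members. The member probes were compared with each other only and not with the mRNAs of other members. Binding of a probe to the mRNA of a relative was therefore not tested. Over the 36 pairs of these probes and the Fosb probe described below, the longest run of bases shared by any pair was 7, and the best ungapped alignment matched 25 of 60 bases.

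Promoter sequence is shown for 3 members, those whose searched window held the CRE palindrome or its part as defined below. AP-1 and CREB sites in the members' own promoters are part of how this family is known to be regulated. The RefSeq table of the GRCr8 assembly held a promoter for 5 of the 8 genes (Fosb, Fosl1, Fosl2, Junb and Jund). Fos, Jun and Atf3 are named only. Each window searched ran from 250 bases before to 50 bases after the gene's start, on both strands, and the 250 bases before the start are printed here in the direction of the gene. Capitals mark matches to the CRE palindrome TGACGTCA, to its part TGACG (read CGTCA on the other strand) or to the TRE core TGANTCA. The Fosl1 sequence is chr1:212183635-212183884 on the plus strand, the Junb sequence chr19:40080876-40081125 on the plus strand and the Jund sequence chr16:18769772-18770021 on the minus strand.
Fosl1: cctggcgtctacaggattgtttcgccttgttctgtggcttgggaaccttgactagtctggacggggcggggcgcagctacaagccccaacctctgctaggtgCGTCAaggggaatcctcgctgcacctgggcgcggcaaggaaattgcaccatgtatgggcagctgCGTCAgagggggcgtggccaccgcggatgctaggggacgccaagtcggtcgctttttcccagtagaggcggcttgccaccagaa
Junb: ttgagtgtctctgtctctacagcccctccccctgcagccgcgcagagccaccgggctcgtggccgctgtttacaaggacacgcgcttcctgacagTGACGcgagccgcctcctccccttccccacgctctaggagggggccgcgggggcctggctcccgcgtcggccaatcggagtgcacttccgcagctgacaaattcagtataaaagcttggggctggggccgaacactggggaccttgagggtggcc
Jund: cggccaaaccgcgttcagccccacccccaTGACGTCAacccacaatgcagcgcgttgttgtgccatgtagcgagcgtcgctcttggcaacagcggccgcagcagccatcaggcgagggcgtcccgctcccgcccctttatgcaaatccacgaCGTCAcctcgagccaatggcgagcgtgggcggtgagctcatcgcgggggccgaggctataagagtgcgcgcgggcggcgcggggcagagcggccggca
Jund held the full TGACGTCA at 221 bases before the start, and a TGACG match at 98 bases before it that does not overlap the palindrome. Of 33469 rat promoters in the table, 1.83% held TGACGTCA and 21.2% held TGACG. Fosl1 held TGACG matches at 148 and 84 bases before the start, and Junb held 1 at 155 bases before it. Junb also had a TATAAA match at 49 bases before its start and Fosb at 180 bases before its own, a motif held by 14.2% of the promoters. The windows of Fosb and Fosl2 held no match to TGACGTCA or TGACG, and their sequences are not printed. No match to TGANTCA (7.33% of promoters) or to the CArG box bound by serum response factor (1.64%) was found in the windows of these 5 genes. A match is a stretch of letters in this window and shows no binding.

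Signals are the background-subtracted intensities of the scanner software. For the comparison they were put on a log2 scale relative to the 75th percentile of each array, so 0 is the level of that percentile. That percentile was 289 to 323 in siRNA arrays and 246 to 261 in NC arrays. Of the spots that are not controls, 56.9% ± 1.63 in siRNA arrays and 61.4% ± 3.03 in NC arrays were well above background (SD, n = 4 each). Of 24853 probes kept, 7389 were called higher (29.7%) and 7938 lower (31.9%) in siRNA cells by limma at an adjusted p under 0.05. Scaling on the array median gave 12991 higher and 4212 lower, and scaling on the spike-in controls 15977 higher and 2773 lower, with the median difference of kept probes shifted by 0.31 and 0.52 (log2). The 4 siRNA arrays share 1 slide and scan and the 4 NC arrays another, so slide and group cannot be told apart. RNA was taken from whole cultures, so fewer cells of a type and less RNA per cell cannot be told apart either. The number of arrays limits the precision.

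All 8 member probes were well above background on all 8 arrays. All 7 measured genes were lower in siRNA cells, with the direction of Fosl2 and of 1 Jund probe turned when spike-in controls set the scale. All 7 were among the genes called lower (adjusted p under 0.05), 5 of them with median or spike-in scaling and 4 with a normexp background correction. Fosl2 and Jund (by its brighter probe) dropped out in each of these, and Jun with normexp as well. Fosl2 was called in only 4 of 18 alternative settings. The count of 7 is no test of the members and only stands beside the share of all genes. In the comparison 29.0% of 11476 genes were called lower and 35.7% higher. Of the 7, 5 (Fos, Fosl1, Jun, Junb and Atf3) were lower by at least 2-fold, against 8.91% of all genes. The rule used this contrast, so nothing is read from these shares. The median log2 difference over the 7 genes was -1.58, beside 0.04 over all genes. The arrays of the groups did not overlap for 7 of the 8 probes, a pattern that 29.7% of kept probes showed in the lower direction.

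**Figure D1:**
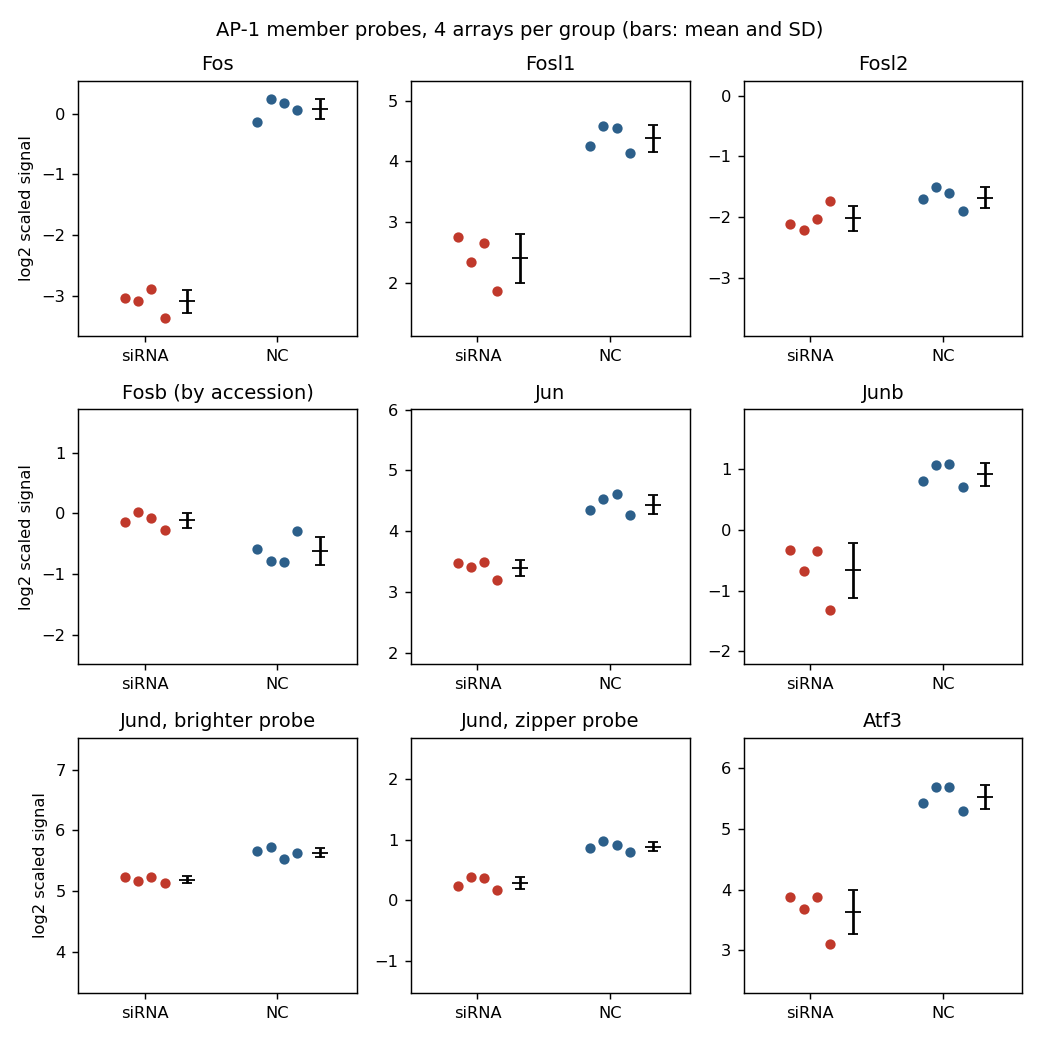
Scaled log2 signal of the member probes on each array, with siRNA arrays left of NC arrays for each gene, points for single arrays and lines for group means. The Fos points lie between -3.36 and -2.89 in siRNA arrays and between -0.14 and 0.24 in NC arrays, while the Fosl2 points of the groups overlap.

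Fos, the founding member of the family, whose protein needs a partner to bind DNA, had the lowest difference of the members. Its probe read 35.4, 36, 39.6 and 31.5 intensity units in siRNA arrays 1 to 4, against 238, 302, 278 and 272 in NC arrays 1 to 4. Every siRNA array was far below every NC array. On the scaled log2 scale Fos averaged -3.09 ± 0.20 in siRNA arrays and 0.09 ± 0.16 in NC arrays (SD, n = 4 each), a difference of -3.18 ± 0.12 (SE), or 9.05-fold lower. Only 0.986% of kept probes had a lower difference. With the normexp correction of the raw spot signals, which adds 50 units to every spot, the difference was -1.86.

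Fosl1 encodes Fra-1, a Fos protein without the strong activation domain of Fos that is known for its long-lasting induction by sustained ERK signalling. Its probe (chr1:208098827-208098886, plus strand, rn4) read 1947, 1561, 1856 and 1170 units in siRNA arrays 1 to 4, against 4979, 6174, 5745 and 4578 in NC arrays 1 to 4. The groups did not overlap, and siRNA array 4 was the lowest of all 8. The scaled log2 means were 2.40 ± 0.40 in siRNA arrays and 4.38 ± 0.22 in NC arrays (SD, n = 4 each), a difference of -1.98 ± 0.20 (SE), or 3.94-fold lower. The difference ran between -2.09 and -1.46 over 18 alternative settings.

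Fosl2 encodes Fra-2, the other Fos protein of this kind. Its probe, which the array design places nowhere on rn4, read 67.1, 66.0, 71.6 and 97.2 units in siRNA arrays 1 to 4, against 80.3, 90.4, 80.6 and 69.2 in NC arrays 1 to 4. The groups overlapped, with siRNA array 4 the highest of its group and NC array 4 the lowest of its own. The difference was -0.34 ± 0.12 (SE), or 1.27-fold lower. It was 0.18 with spike-in scaling and -0.036 with median scaling, so the sign of this member depends on the scale.

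Fosb encodes a Fos protein that also occurs as a shorter isoform without the activation domain. One probe that the scanner files name LOC100360880 (chr1:78668672-78668731, minus strand, rn4) has an accession that the RefSeq table lists under Fosb, and it is given here outside the rule. It read 261, 311, 279 and 268 units in siRNA arrays 1 to 4, against 174, 149, 141 and 211 in NC arrays 1 to 4. All siRNA arrays were above all NC arrays, the opposite order to Fos and Fosl1, but on the scaled log2 scale only 0.03 separated the lowest siRNA array from the highest NC array. In that direction 28.4% of kept probes had groups that did not overlap. The scaled means were -0.12 ± 0.12 in siRNA arrays and -0.62 ± 0.23 in NC arrays (SD, n = 4 each), a difference of 0.50 ± 0.12 (SE), or 1.41-fold higher. It ran from 0.34 with normexp to 1.02 with spike-in scaling over the 18 alternatives.

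Jun is the Jun protein with the strongest activation domain and the classical partner of Fos. Its probe (chr5:115358764-115358823, minus strand, rn4) was printed as 10 spots on each array, of which 1 was left out on siRNA array 2. The mean over spots was 3238, 3273, 3301 and 2952 units in siRNA arrays 1 to 4, against 5302, 5905, 6050 and 5021 in NC arrays 1 to 4. The groups did not overlap at the level of single spots: the highest spot of any siRNA array read 3605 units, against 4658 for the lowest spot of any NC array. The coefficient of variation among the spots of an array was 5.65% to 7.22%, which describes the printing and reading of 1 labelled sample and not the spread of cultures. The scaled log2 means were 3.39 ± 0.14 in siRNA arrays and 4.44 ± 0.16 in NC arrays (SD, n = 4 each), a difference of -1.05 ± 0.10 (SE), or 2.06-fold lower. The difference was -0.53 with spike-in scaling, -0.74 with median scaling and -0.72 with normexp.

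**Figure D2:**
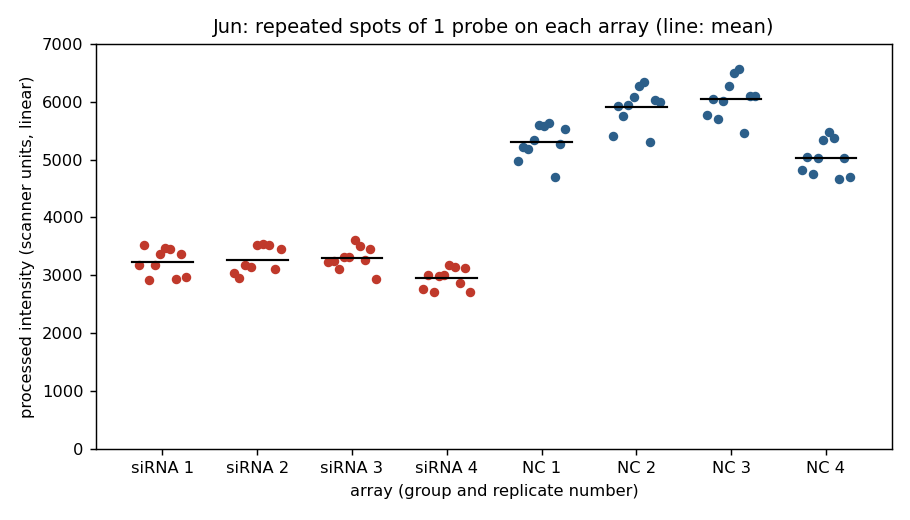
Processed intensity (linear scale) of each repeated spot of the Jun probe, with the 4 siRNA arrays left of the 4 NC arrays and a line at each array's mean. The spots of siRNA arrays reach up to 3605 units, and those of NC arrays start at 4658 units.

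Junb, a Jun protein that often opposes Jun on shared promoters, had the probe shown above that ends in the stop codon. It read 230, 192, 231 and 130 units in siRNA arrays 1 to 4, against 456, 539, 520 and 426 in NC arrays 1 to 4. Every siRNA array was below every NC array, and siRNA array 4 was again the lowest. The scaled log2 means were -0.67 ± 0.46 in siRNA arrays and 0.92 ± 0.19 in NC arrays (SD, n = 4 each), a difference of -1.58 ± 0.22 (SE), or 3.0-fold lower. Over the 18 alternatives the difference lay between -1.69 and -1.07.

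Jund is the Jun protein made steadily in resting cells, and it is known less for induction than the other members. Its zipper probe read 342, 399, 379 and 363 units in siRNA arrays 1 to 4, against 473, 507, 461 and 453 in NC arrays 1 to 4. Its brighter probe (chr16:19239704-19239763, minus strand, rn4) read 10886, 11020, 11043 and 11275 units in siRNA arrays, against 13164, 13502, 11414 and 12851 in NC arrays. Neither probe's groups overlapped, though NC array 3 lay close to the siRNA arrays in the brighter probe before scaling. The differences were -0.60 ± 0.07 for the zipper probe and -0.44 ± 0.06 for the brighter one (SE), or 1.52-fold and 1.36-fold lower. With spike-in scaling they were -0.081 and 0.073, where the median kept probe was at 0.49, against -0.027 under the main scaling. With median scaling they were -0.29 and -0.14, and with normexp -0.38 ± 0.14 and -0.14 ± 0.25 (SE).

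Atf3, a stress-induced bZIP repressor that pairs with Jun proteins, is the member from outside the Fos and Jun genes proper. Its probe (chr13:107191582-107191614, minus strand, rn4, where the design maps 33 of its 60 bases) read 4237, 3916, 4326 and 2768 units in siRNA arrays 1 to 4, against 11250, 13234, 12751 and 10192 in NC arrays 1 to 4. The groups did not overlap, and siRNA array 4 was the lowest. The scaled log2 means were 3.63 ± 0.37 in siRNA arrays and 5.53 ± 0.20 in NC arrays (SD, n = 4 each), a difference of -1.90 ± 0.19 (SE), or 3.72-fold lower. Over the 18 alternatives it lay between -2.01 and -1.38.

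**Figure D3:**
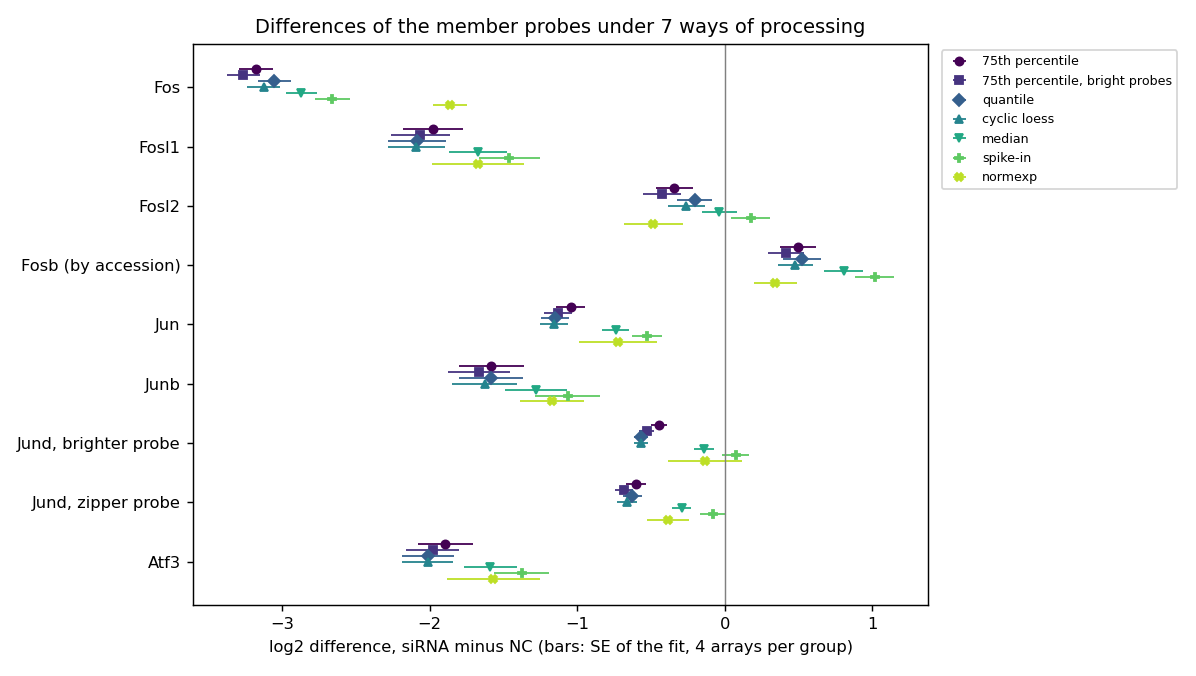
Log2 difference, siRNA minus NC, of each member probe under 7 ways of processing, with bars for the SE of the fit (4 arrays per group). Fos, Fosl1, Jun, Junb and Atf3 stay left of 0 in all of them, Fosb stays right of 0, and the brighter Jund probe and Fosl2 cross 0 with spike-in scaling.

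The scaled signals of the members also varied together among arrays of the same group, a measure the rule did not use. In siRNA array 4 the scaled signal lay below its group's mean by 0.64 for Junb, 0.55 for Fosl1, 0.53 for Atf3, 0.27 for Fos and 0.20 for Jun. It was the lowest siRNA array for 7 of the 8 member probes, as it was for 39.1% of kept probes, and Fosl2 was the exception. Among NC arrays, arrays 2 and 3 lay above and arrays 1 and 4 below the group mean for 7 of the 8 probes, a pattern of 15.9% of kept probes. For Fosl1 these NC deviations were -0.13, 0.21, 0.16 and -0.24 in arrays 1 to 4. For Fos they were -0.22, 0.15, 0.09 and -0.02. The brighter Jund probe was the exception among the NC arrays. Fosb went the other way there, with NC array 4 the highest of its group by 0.32 over the mean. Both patterns were picked after the values were seen, and the members of an array share its labelling, its scan and its subtracted 75th percentile. That percentile was 289, 307, 294 and 323 in siRNA arrays 1 to 4 and 261, 256, 246 and 260 in NC arrays 1 to 4. Before scaling, siRNA array 4 was the highest of its group for the brighter Jund probe (11275 units). For the Jund zipper probe it read 363 units, above siRNA array 1 at 342. The part of this percentile in the patterns was not tested. With 1 array left out at a time, the difference of Fos lay between -3.25 and -3.09, that of Junb between -1.69 and -1.37 and that of Fosl2 between -0.44 and -0.28.

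**Figure D4:**
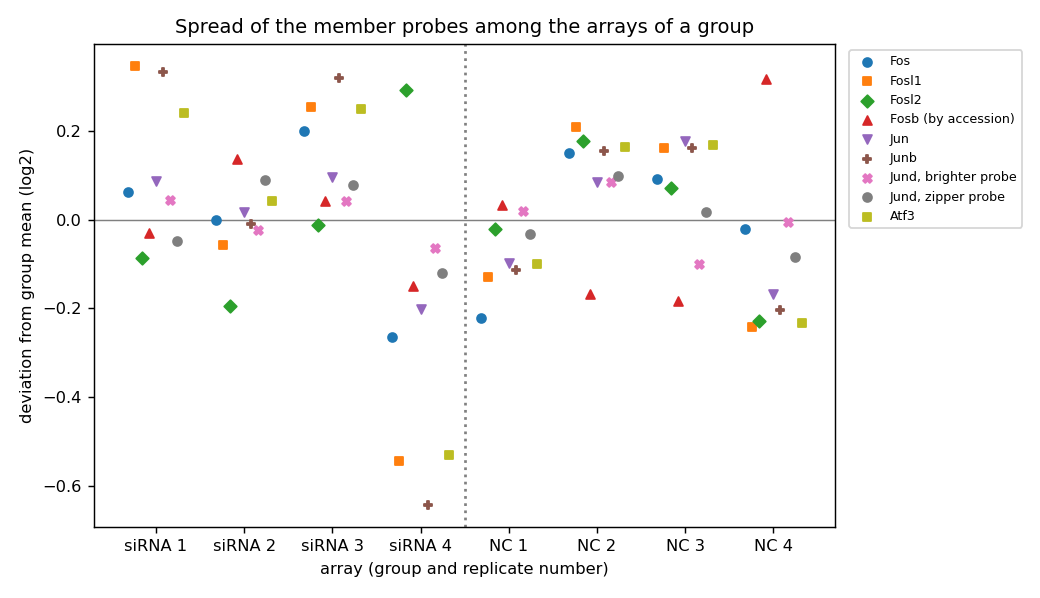
Deviation of each array from its own group's mean (log2) for the member probes, with siRNA arrays left of NC arrays. siRNA array 4 lies 0.64 below its group mean for Junb and 0.29 above it for Fosl2.

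The other genes tied to AP-1 were counted in 5 lists, each gene by its brightest kept probe and with the members left out. The lists were drawn up with earlier results of these data known, so their counts are not independent evidence of a direction. Tests are limma with Benjamini-Hochberg adjustment over all kept probes. In this comparison 35.7% of genes were called higher and 29.0% lower, with a median difference of 0.04.

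Of 29 measured genes known as AP-1 targets, 19 fell, 2 rose and 8 did not pass the test, with a median log2 difference of -0.66. Hbegf, a membrane-bound EGF receptor ligand, fell by 1.15 ± 0.07 on the log2 scale (SE, adjusted p = 1.03e-05). Hmox1, the haem-degrading enzyme, had a difference of -1.37 ± 0.13 (adjusted p = 8.62e-05). Plaur, the urokinase receptor, fell with -0.84 ± 0.11 (adjusted p = 0.000445), a call lost with normexp, and its other probe had -1.05. Ets1, a transcription factor that works with AP-1 at protease promoters, fell with -0.55 ± 0.07 (adjusted p = 0.000306), a call that was lost with spike-in scaling and with normexp. Mmp14, a membrane-bound matrix metalloprotease, rose with 1.02 ± 0.07 (adjusted p = 2.27e-05). The other target that rose, named after its value was seen, was Ezr, a linker of membrane and actin, with 0.48 ± 0.07 (adjusted p = 0.000839), while its other probe had 0.13 and did not pass the test. With spike-in scaling 9 of the list were called lower and 7 higher, and with normexp 8 lower and 1 higher.

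Of 21 measured bZIP genes whose proteins pair with AP-1 members or share their sites, 15 fell, 3 rose and 3 did not pass the test (median -0.59). Batf, which pairs with Jun proteins in lymphocytes, passed the background mark on 0 of 4 siRNA arrays and 4 of 4 NC arrays, so it was at least 4.14-fold lower. The scaled means behind this bound were -6.07 in siRNA arrays and -2.41 in NC arrays. Batf2, a relative of Batf, passed the background mark on 1 of 4 siRNA arrays and 4 of 4 NC arrays (scaled means -5.02 and -1.24), so the size of its fall is not given. Batf and Batf2 were kept through their NC arrays alone. They are in the count, but no p-value is given for them. Among the small Maf proteins, which lack an activation domain, Mafk fell with -1.32 ± 0.09 (adjusted p = 2.13e-05). Bach1, a repressor that pairs with small Maf proteins, fell with -0.97 ± 0.12 (adjusted p = 0.000235), and its other probe had -1.04. Atf2, a partner of Jun at CRE sites, fell with -0.69 ± 0.09 (adjusted p = 0.000278), but not with spike-in scaling. Maf, a large Maf protein, rose with 0.61 ± 0.09 (adjusted p = 0.000654), a call lost with normexp. The other genes counted as higher, named after their values were seen, were Jdp2 (0.38 ± 0.06) and Creb1 (0.19 ± 0.04). Jdp2 is a repressor that pairs with Jun, and Creb1 a factor bound to CRE sites. The 4 other Creb1 probes went the other way. Those at -0.43 and -0.31 were called lower and those at -0.16 and -0.09 did not pass the test, so no direction is given for Creb1. Spike-in scaling called 6 of the list lower and 8 higher, and normexp 6 lower and 0 higher. With only probes well above background on all arrays, 11 of the list were called lower and 3 higher.

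The 26 measured kinases and factors upstream of AP-1 were mixed: 12 rose, 4 fell and 10 did not pass the test (median 0.14). Map3k1, a kinase at the head of the JNK cascade, rose with 1.31 ± 0.07 (adjusted p = 4.96e-06), while its other probe had 0.41 and did not pass the test. Map2k6, which phosphorylates p38, rose with 1.48 ± 0.13 (adjusted p = 5.05e-05), and Mapk14, the p38 alpha kinase, with 0.71 ± 0.08 (adjusted p = 0.000203). Mapk3, which encodes ERK1, rose with 0.65 ± 0.06 (adjusted p = 8.16e-05), and Rps6ka3, an ERK-activated kinase, with 0.79 ± 0.12 (adjusted p = 0.000611). Mef2a, a factor that binds the Jun promoter, fell with -0.64 ± 0.06 (adjusted p = 8.26e-05), which did not hold with spike-in scaling or normexp. The other genes counted as lower, named after their values were seen, were Mapk7 (-0.43 ± 0.07), Map2k1 (-0.26 ± 0.07) and Mapk8 (-0.14 ± 0.05), which encode ERK5, MEK1 and JNK1. The 3 other Mapk8 probes disagreed, with -0.46 and -0.32 called lower and 0.23 called higher, so no direction is given for that gene. The calls of Map3k1, Map2k6 and Mapk3 were lost with normexp. With normexp 3 of the list were called higher and 0 lower, and with spike-in scaling 22 higher and 0 lower.

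Of 10 measured genes for turnover and cofactors of AP-1 proteins, 3 fell, 2 rose and 5 did not pass the test. Their median of -0.02 became 0.50 with spike-in scaling, 0.29 with median scaling and 0.26 with normexp. Smad3, the TGF-beta effector that joins AP-1 on DNA, was above background on 0 of 4 siRNA arrays and was at least 2.07-fold lower. It was kept through its NC arrays alone, so no p-value is given for it. With only probes well above background on all arrays, 2 of the list were called lower and 2 higher. Det1, part of a ubiquitin ligase that targets Jun, fell with -0.53 ± 0.05 (adjusted p = 5.32e-05), and Sirt1, a deacetylase, with -0.79 ± 0.10 (adjusted p = 0.000316). Nfatc3, a member of the NFAT factors that bind DNA with AP-1, rose with 0.66 ± 0.06 (adjusted p = 9.73e-05). Of its other probes, 1 rose (0.56) and 2 did not pass the test (0.17 and -0.10). Cops5, known as a Jun coactivator, rose with 0.21 ± 0.05 (adjusted p = 0.00587). The calls of Det1 and Sirt1 were lost with spike-in scaling and normexp, that of Smad3 with normexp, and that of Cops5 with quantile normalization, cyclic loess and normexp.

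Of 29 measured immediate early genes outside the AP-1 family, 27 fell, 0 rose and 2, Rgs2 and Sik1, did not pass the test (median -1.23). All 29 differences were at or below -0.16, so limma gave 0 rising genes at an unadjusted p under 0.05 as well. With normexp 17 were called lower, and with spike-in scaling 1, Sik1, was called higher. Arc, the activity-regulated cytoskeletal gene of neurons, fell by 5.84 ± 0.13 on the log2 scale (SE, adjusted p = 1.29e-07). Egr1, a zinc finger factor induced by the same signals as Fos, fell with -2.99 ± 0.11 (adjusted p = 9.77e-07), and the nuclear receptor gene Nr4a2 with -2.44 ± 0.10 (adjusted p = 1.30e-06). Plk2, a kinase, fell with -2.50 ± 0.13 (adjusted p = 5.66e-06), and the stress sensor gene Gadd45b with -1.33 ± 0.06 (adjusted p = 2.96e-06).

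**Figure D5:**
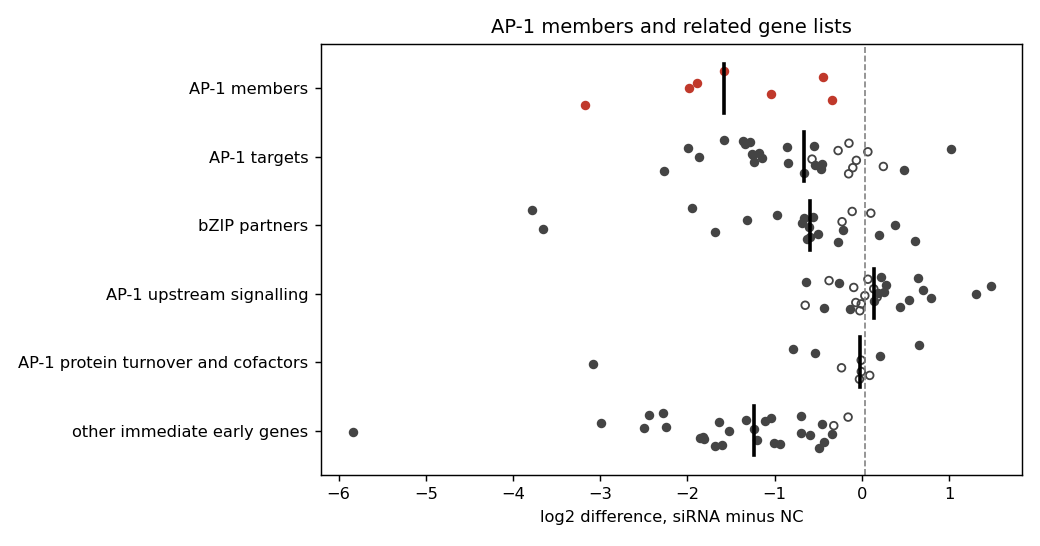
Log2 difference, siRNA minus NC, of each measured gene in the 5 lists, filled where called at an adjusted p under 0.05 and open where not, with a thick line at the list's median and a dashed line at the median of all genes (0.04). A top row holds the 7 members, each by its brightest probe, with a median of -1.58. The medians of the 5 lists run from -1.23 for the other immediate early genes to 0.14 for the upstream signalling genes.

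For 3 members the genes of most similar pattern over the 8 arrays were looked up among 11465 genes, by the root mean square difference of values centred on each gene's mean. The groups share the arrays' slides, and a gene with a similar group difference comes close by construction. Nearest to Fos were Egr1 (0.13, log2), Oasl (0.16) and Amh (0.16). Nearest to Jun were Fbxo30 (0.03), Hist1h2bq (0.05) and Stk10 (0.05). Nearest to Atf3 were Syngr3 (0.05), Myc (0.07) and the member Fosl1 (0.07).

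Markers of cell types were read beside these results. Of 18 hepatocyte markers 8 were measured, and Alb, Ttr, Serpina1, Tf, Ahsg, Cyp3a2, Tat and Ass1, which include the secreted proteins that define hepatocytes, were above background on no array. Of the 8, 3 rose and 3 fell. The summed linear level of the measured ones, relative to each array's 75th percentile, was 8.70 to 11.2 in siRNA arrays and 4.21 to 4.88 in NC arrays, with Cyp2e1 at a difference of 4.94. Apoa1 and Krt18 went the other way, each above background on 1 of 4 siRNA arrays, with scaled means of -4.93 and -4.89 in siRNA arrays and -0.49 and -1.70 in NC arrays. Such sums add the levels of different probes and follow the brightest ones. Of 10 measured fibroblast and stellate cell markers (15 listed), 5 rose and 1 fell, Col3a1 by 2.66 upward, with sums of 386 to 408 in siRNA arrays and 327 to 361 in NC arrays, and Pdgfra, Lum and Fbln2 on no array. Of 11 leukocyte markers 3 were measured, with Cd163, Adgre1 and Cd79a on no array, only Cd68 passed the test (-2.39, lower), and their sums were 5.27 to 6.24 in siRNA arrays and 6.44 to 7.35 in NC arrays. The 5 measured of 8 endothelial markers summed to 4.32 to 5.89 in siRNA arrays and 2.22 to 2.95 in NC arrays, with 3 higher, 2 lower and Pecam1 on no array. Kdr was higher (1.65), while Tek, at least 2.92-fold lower, and Vwf, at least 8.15-fold lower, were above background on 0 of 4 siRNA arrays. The 3 measured of 7 cholangiocyte markers summed to 4.24 to 4.85 in siRNA arrays and 2.11 to 2.36 in NC arrays, with 1 higher, 2 lower and Epcam and Cftr on no array. The part of these markers, of the slide and of the array percentiles in the differences of the AP-1 genes was not tested.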

How the data were processed

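Total RNA of 8 samples was labelled with Cy3 and hybridised to 1-colour Agilent rat arrays. Per the file headers, the deposited scanner files hold spot intensity from Feature Extraction 12.0.3.1 (12.0 per the submitters' processing notes), background-subtracted and not scaled between arrays. Control spots and outlier spots (134 to 155 per siRNA array, 129 to 174 per NC array) were left out, intensities were taken to log2, the 75th percentile of each array was subtracted, and spots of a probe were averaged. Probes well above background on at least 3 of 4 arrays of a group were kept. The comparison used lmFit and eBayes of limma 3.58.1 (R 4.3.3), two-sided, with Benjamini-Hochberg adjustment. Names came from the file or, by accession, from RefSeq GRCr8 (18028 probes by accession), and 18128 probes had none.

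A series table deposited by the authors gives 86 probes as log2 values, none of a member. They followed the scanner values (median gap to quantile-normalized values at most 0.0123), which settles log2 scale and no centring. The sources used here do not give how it was normalized. Column medians were 5.53, 5.24, 5.32 and 5.72 for siRNA 1 to 4 and 5.34, 5.18, 5.17 and 5.45 for NC 1 to 4.

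Members and lists were chosen with earlier results of these data known. Named genes were every member probe, up to 6 called genes per list by smallest adjusted p (at most 5 per direction), the 3 nearest genes of Fos, Jun and Atf3, and up to 3 markers per cell type by difference. Some named items are not reported here. A bound sets the bright group's mean against the dim group's detection level on each array.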

Additional observations from a re-analysis of the deposited data

Results flagged for a closer look

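Among 74 groups of 4 arrays checked with Dixon's ratio, 3 had 1 array far from the others of its group, and chance marks about 1 in 20 such groups. Mmp14, the membrane-bound metalloprotease, read 5.19 (scaled log2) in siRNA array 4, with the other siRNA arrays at 5.34 to 5.37. Mafk read -1.61 in siRNA array 4, with the others at -1.26 to -1.22. Gadd45b read 4.14 in NC array 2, with the other NC arrays at 3.92 to 3.94. No member of the AP-1 family was among them.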

How the results depend on the processing

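With spike-in scaling, the brighter Jund probe was at 0.073 and Fosl2 at 0.18, reversed against the main values, and calls of all probes were 15977 higher and 2773 lower. The same scaling called 7 targets higher and 9 lower, 8 bZIP partners higher and 6 lower, 22 upstream genes higher and 0 lower, 7 turnover genes higher and 1 lower, and 1 other early gene higher. Median scaling gave 12991 probes higher and 4212 lower, 5 targets higher, 19 upstream genes higher and 1 lower, and 6 turnover genes higher. Cyclic loess gave 7 upstream genes higher, and it and quantile normalization 1 turnover gene higher. Normexp gave 1972 probes higher and 1677 lower, 4 member genes lower, 1 target higher and 8 lower, 0 bZIP partners higher and 6 lower, 3 upstream genes higher and 0 lower, 1 turnover gene higher and 0 lower, and 17 early genes lower. Normexp with spots below their local background left out, added after the data were seen, gave 1973 and 1676 probes and the same list counts. The 50 units that normexp adds narrow the log2 differences of dim spots by construction. Beyond this and the shift of the scale, the cause of these changes was not tested. Leaving out 1 array gave 6628 to 7409 probes higher and 6972 to 7703 lower, 0 member genes higher and 6 to 7 lower, 2 to 3 targets higher and 17 to 20 lower, 3 bZIP partners higher and 13 to 16 lower, 10 to 14 upstream genes higher and 3 to 4 lower, 2 turnover genes higher and 3 to 4 lower, and 0 early genes higher and 27 lower. Whether replicate numbers shared by the groups pair the arrays was not settled. Deviations of same-numbered arrays correlated at 0.01, 0.03, -0.03 and 0.21 for numbers 1 to 4. Those of differently numbered arrays correlated between -0.13 and 0.09, so number 4 had the highest value of all pairs. With the replicate block, 7166 probes were called higher and 7819 lower, and 6 member genes lower, without Fosl2. The authors' deposited table holds no member probe and could not serve as an alternative for them. Probes that are dim in 1 group, such as Batf and Smad3 in siRNA arrays, have only a bound and no p-value here. With only probes well above background on all arrays, 11 bZIP partners and 2 turnover genes were called lower.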
